A study of Rattus norvegicus with 40 samples.

Results

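The respiratory chain and the ATP synthase of the inner mitochondrial membrane were examined gene by gene in rat liver after dosing with GW7647, a compound made to activate the nuclear receptor PPAR-alpha. The members were all genes on the array whose symbol starts with Nduf, with Sdha, Sdhb, Sdhc or Sdhd, with Uqcr, with Cox4, Cox5, Cox6, Cox7 or Cox8, or with Atp5, which gave 87 of the 13437 genes tested. The rule reads names only and uses no measured difference. It also takes in assembly factors and tissue isoforms, so the 87 genes are not all subunits: 67 are structural subunits of the liver forms, 10 are assembly factors (6 Ndufaf and 4 Sdhaf genes), 7 are isoforms known from other tissues or conditions, and 3 are others (the supercomplex factor Cox7a2l, the inhibitor Atp5if1 and the pseudogene Cox6c-ps1). By complex there are 38 members for complex I, 8 for complex II, 7 for complex III, 18 for complex IV and 16 for complex V. Ndufa4 and Ndufa4l2 were counted with complex IV, to which Ndufa4 is now assigned. Another 11 probe sets name several genes, at least 1 of them with such a symbol, and were not used, so that Atp5f1c, Atp5mc2, Cox6c, Cox7a2, Ndufa10, Ndufa3, Ndufb4, Ndufs5 and Uqcrb have no value here.

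Complex I takes electrons from NADH and complex II takes them from succinate, and both pass them to ubiquinone. Complex III moves them on to cytochrome c and complex IV to oxygen, and the protons pumped by complexes I, III and IV drive the ATP synthase, complex V. In liver this chain uses the NADH and reduced flavoproteins that the oxidation of fatty acids yields, and PPAR-alpha is the receptor through which fatty acids induce the genes of that oxidation. Core subunits encoded in mitochondrial DNA are not among the members, which are all nuclear genes by their symbols.

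Livers came from 40 adult male Sprague Dawley (SD:CD) rats in 4 groups of 10. Rats of 1 group received vehicle, and those of the others GW7647, by gavage once a day for 4 days, and livers were collected 24 h later than the last gavage. The doses were 0.1 mg/kg, here the low dose, then 1 mg/kg, the middle dose, and 10 mg/kg, the high dose. No group differs in strain, sex or genotype by the labels, and each liver was read on 1 array, so that the values are for whole tissue. A lower level of a transcript in whole liver can come from fewer cells of a type or from less RNA per cell, and these cannot be told apart. The 7 measured hepatocyte markers had a mean log2 level of 11.92 to 12.12 on the vehicle arrays, and all 9 measured striated muscle markers averaged below 2.5, close to the floor of the array values.

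The deposited log2 values were not on 1 level across groups. The median log2 change of all genes from vehicle was -0.03 for the low dose, 0.16 for the middle dose and 0.26 for the high dose. Spiked control RNAs added before labelling averaged log2 5.57, 5.84, 6.22 and 6.56 from vehicle to 10 mg/kg, and the log2 difference between the 3′ and 5′ probe sets of beta-actin was 2.78, 2.85, 3.11 and 3.22. The part of these shifts in the results was not tested. Every fit was therefore made both on the deposited values and after quantile normalization of all 40 arrays, which brought the median change of all genes to -0.01 at 1 mg/kg and -0.02 at 10 mg/kg. The words rose and fell are used where limma's adjusted p was under 0.05 in the same direction on both scales. With the deposited scale shifted upward at the higher doses, a fall had to pass against that shift, so that rises are called more readily than falls. Changes are given as log2 differences, first deposited and then quantile.

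Promoter sequences of 80 of the 87 members were found in RefSeq's table for the GRCr8 build, as windows of 250 bases before and 50 after the annotated start. Those of Ndufa7 and Ndufa1 are shown because these accessory subunits of complex I lay at opposite ends of the changes in that complex, a choice made after their values were seen. Those of Cox8a and Atp5pf are shown as members of complexes IV and V that rose and hold matches to the motifs searched. Each is the stretch before the start, 5′ to 3′ on the gene's strand, with motif matches in capitals. Ndufa7 lies at chr7:15311196-15311445 (plus strand), Ndufa1 at chrX:121293556-121293805 (minus strand), Cox8a at chr1:213833624-213833873 (minus strand) and Atp5pf at chr11:37375102-37375351 (minus strand).
Ndufa7: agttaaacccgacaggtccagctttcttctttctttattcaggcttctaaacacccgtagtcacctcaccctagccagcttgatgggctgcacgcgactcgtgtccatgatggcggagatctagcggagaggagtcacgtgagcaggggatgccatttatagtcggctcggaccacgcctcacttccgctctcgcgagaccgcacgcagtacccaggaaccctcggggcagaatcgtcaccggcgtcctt
Ndufa1: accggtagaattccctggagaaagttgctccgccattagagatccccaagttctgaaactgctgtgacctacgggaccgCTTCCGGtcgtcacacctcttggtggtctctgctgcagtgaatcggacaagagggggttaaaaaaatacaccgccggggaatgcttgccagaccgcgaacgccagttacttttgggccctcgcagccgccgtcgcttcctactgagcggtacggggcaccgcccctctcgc
Cox8a: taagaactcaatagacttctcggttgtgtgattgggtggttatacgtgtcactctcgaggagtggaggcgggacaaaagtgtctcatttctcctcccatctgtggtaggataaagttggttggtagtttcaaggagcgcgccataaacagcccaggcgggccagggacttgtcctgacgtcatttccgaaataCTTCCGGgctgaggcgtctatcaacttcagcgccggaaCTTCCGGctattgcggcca
Atp5pf: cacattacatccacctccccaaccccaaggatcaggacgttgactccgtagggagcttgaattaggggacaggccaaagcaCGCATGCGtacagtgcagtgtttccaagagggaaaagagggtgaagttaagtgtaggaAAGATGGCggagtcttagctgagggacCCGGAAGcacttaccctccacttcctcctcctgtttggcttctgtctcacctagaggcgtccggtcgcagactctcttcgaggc
The capitals mark CCGGAAG, the core bound by ETS factors such as GABPA, which has 1 match in Ndufa1, 2 in Cox8a and 1 in Atp5pf, AAGATGGC, the YY1 motif, and CGCATGCG, the core of the NRF1 palindrome, with 1 match each in Atp5pf. Ndufa7 holds no match to the 5 motifs searched in the stretch shown.

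Over the whole windows, searched on both strands, CCGGAAG was found in 25 of 80 member promoters (31.2%), against 21.5% of 4966 promoters of genes at log2 5 or more and 9.22% of all 27457 promoters. AAGATGGC was in 16 of 80 (20%), against 6.65% and 3.44%. AAGGTCA, the half-site bound by estrogen-related receptors, was in 10 of 80 (12.5%), against 2.7% and 4.37%. CGCATGCG was in 8 of 80 (10%), against 4.33% and 1.81%. AGGTCANAGGTCA, a direct repeat of the kind PPAR-alpha binds, with N any base, was in 0 of 80 and in 0.0583% of all promoters; these exact letters are not in these short windows, which says nothing of binding. The repeat can hold AAGGTCA. Among the 48 matched members that rose at 10 mg/kg, 27.1% held CCGGAAG and 22.9% AAGATGGC, and among the 32 that did not, 37.5% and 15.6%. For CGCATGCG the shares were 6.25% and 15.6%, and for AAGGTCA 12.5% in both. These shares are descriptions of sequence, and no difference between them was tested.

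In vehicle livers the subunits were among the bright transcripts. Of the 67 structural subunits, 58 had a vehicle mean of log2 9 or more, and the median member stood at 9.73, where the median of all genes was 3.92. The SD over the 10 vehicle rats had a median of 0.12 over the 77 members that reached a group mean of log2 5, and ranged from 0.05 to 0.56 over them. The other 10 members stayed below log2 5 in every group and are called dim. They are Ndufaf1, Ndufaf7, Cox6c-ps1 and the isoforms Cox4i2, Cox6a2, Cox6b2, Cox7a1, Cox7b2, Cox8b and Ndufa4l2.

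At 0.1 mg/kg no member rose or fell (0 of 87), where 0.0819% of all genes rose and 0.00744% fell. The median change of the members was 0.01 on the deposited scale and 0.03 on the quantile scale, against -0.03 and 0.00 for all genes. At an unadjusted limma p under 0.05 only 1 member, Uqcrc1, was higher on both scales and 0 were lower. Uqcrc1 encodes a core subunit of complex III and read 9.85, 10.03 and 10.21 (lowest, median and highest of 10 arrays) with vehicle and 10.00, 10.16 and 10.37 at 0.1 mg/kg. The 2 groups overlapped, and its change did not pass the adjusted test.

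At 1 mg/kg 26 of 87 members rose and 0 fell, where 11.1% of all genes rose and 3.37% fell. This count depends on the scaling. With the arrays shifted to 1 gene median 8 rose and 3 fell, and scaled to the hybridisation controls 9 rose. Shares of all genes under these scalings were not computed. Among genes that reached log2 5 in a group, 25 of 77 members rose, where 13.7% of 5809 such genes did. The highest group mean decides this filter, so a gene can pass it through a dosed group alone. At an unadjusted p under 0.05, 0 members were lower on both scales and 3 (Ndufa1, Ndufa4l2 and Ndufa5) were lower on the quantile scale. The median change of the members was 0.28 and 0.10, against 0.16 and -0.01 for all genes and 0.25 and 0.00 for genes at log2 5 or more. In 5 members every array at 1 mg/kg lay above every vehicle array on both scales (Atp5f1e, Cox6a1, Cox8a, Ndufa7 and Ndufb1), where 1.3% of all genes showed this. With the deposited scale alone 67 members were higher, where 38.2% of all genes were. With the quantile scale alone 2 (Ndufa1 and Ndufa4l2) were lower, where 12.1% of all genes were.

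At 10 mg/kg 52 of 87 members rose and 0 fell, where 20.5% of all genes rose and 7.69% fell. Among genes at log2 5 or more, 49 of 77 members rose, where 26.2% did so in all. Some genes pass that filter only through the 10 mg/kg group, as Ndufaf4 (4.73 with vehicle, 5.40 there) and Ndufaf5 (4.70 and 5.01) did. This count and its share thus depend in part on the outcome, while the counts over all 87 members use no filter. The median change was 0.49 and 0.21, against 0.26 and -0.02 for all genes and 0.30 and 0.00 for those at log2 5 or more. In 14 members the 10 mg/kg arrays all lay above the vehicle arrays on both scales, where 3.63% of all genes showed this. They were Ndufa7, Ndufa8, Ndufa12, Ndufab1, Ndufb1, Ndufb2, Ndufb10 and Ndufs4 of complex I, Cox6a1 and Cox8a of complex IV, and Atp5f1b, Atp5f1e, Atp5mpl and Atp5pf of complex V, with none from complexes II and III. At an unadjusted p under 0.05, 0 members were lower on both scales and 4 (Ndufa1, Ndufa2, Ndufs6 and Cox8b) were lower on the quantile scale. With the deposited scale alone 80 members were higher (56.5% of all genes), and with the quantile scale alone 2, Ndufa1 and Ndufa2, were lower (24.4% of all genes). All 26 members that rose at the middle dose also rose here, and both comparisons share the vehicle arrays. The changes were modest: in a limma test against a 1.2-fold change on both scales, 9 members remained at 10 mg/kg and 0 at 1 mg/kg. The share of all genes passing this test was not computed.

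**Figure D1:**
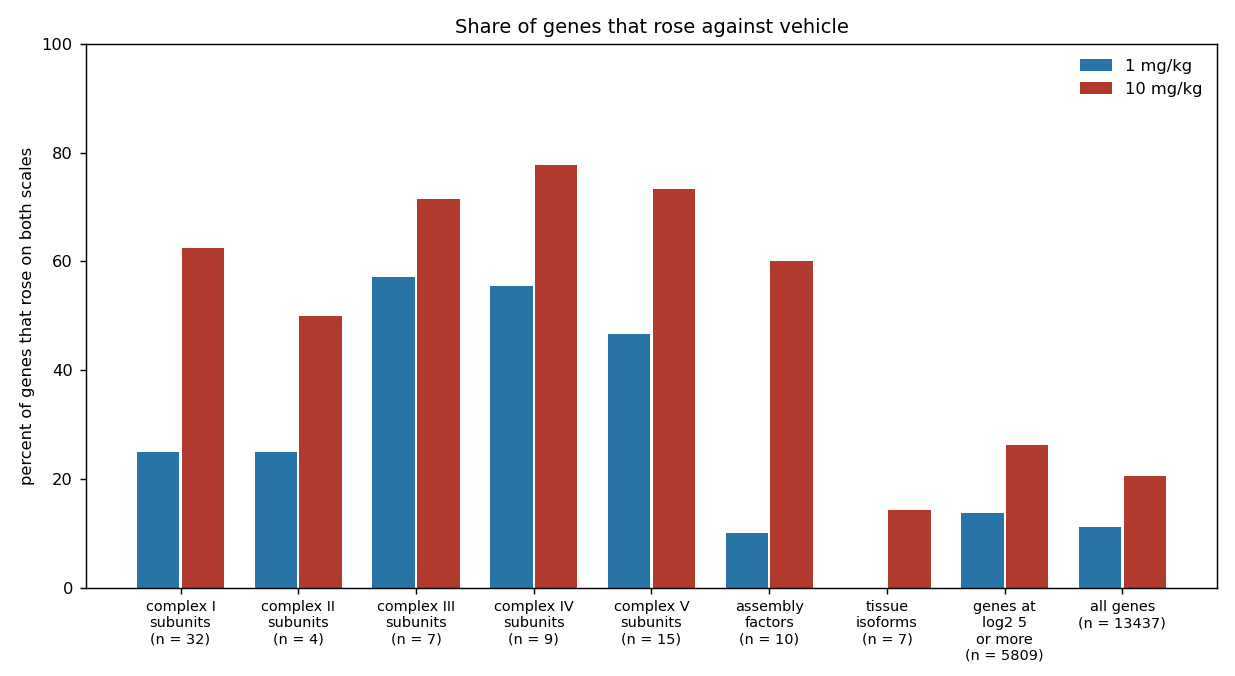
Share of genes (percent, vertical axis from 0) that rose against vehicle on both scales at 1 mg/kg (blue) and 10 mg/kg (red), for the structural subunits of each complex, assembly factors, tissue isoforms, genes at log2 5 or more and all genes. At 10 mg/kg the subunits of every complex lie between 50% and 77.8%, above the 26.2% of genes at log2 5 or more; complex II has only 4 subunits.

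The steps between doses were compared directly. From 0.1 to 1 mg/kg 22 members rose and 0 fell, where 10.5% of all genes rose and 2.95% fell. With the arrays shifted to 1 gene median the balance turned, with 4 rises and 11 falls in this step. Scaled to the hybridisation controls, 13 rose. Shares of all genes under these scalings were not computed for either step. The low-dose group holds arrays 8 and 9, whose gene medians of 3.49 and 3.60 lay below the 3.88 to 3.99 of its other arrays; without both, 22 members rose in this step and 0 fell. From 1 to 10 mg/kg 23 rose and 0 fell, where 8.55% rose and 5.98% fell; shifted to 1 gene median 47 rose, and scaled to the hybridisation controls 4. The deposited scale alone gave 70 and 49 higher (45.4% and 24.2% of all genes), and the quantile scale alone 1 and 1 lower (11.4% and 9.74%). The rise from 1 to 10 mg/kg was 0.20 and 0.11 in the median member, against 0.09 and -0.01 for all genes. The 11 members that rose in both steps were Ndufa7, Ndufa12, Ndufb1, Ndufb2, Ndufb10 and Ndufs4 of complex I, Cox8a of complex IV, and Atp5f1b, Atp5f1e, Atp5mpl and Atp5po of complex V. The share of all genes that rose in both steps was not computed. At an unadjusted p under 0.05, 0 members were lower on both scales in either step. The step from 1 to 10 mg/kg rests on the arrays of the 1 mg/kg group: their spiked control RNAs averaged between 5.25 and 5.70 for the first 4 arrays and between 6.34 and 7.39 for the other 6. With arrays 1 to 4 alone, an alternative prompted by earlier results of these data, 5 members rose in that step, while 19 still rose from vehicle to 1 mg/kg. Shares of all genes with these arrays alone were not computed.

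The mean over structural subunits was computed for each complex and array. With vehicle the mean of the 32 complex I subunits was 9.49, 9.52 and 9.64 (lowest, median and highest array), at the low dose 9.48, 9.55 and 9.65, at the middle dose 9.70, 9.83 and 9.94, and at the high dose 9.96, 10.03 and 10.12 on the deposited scale. The vehicle and 0.1 mg/kg arrays overlapped, and both higher doses lay above all vehicle arrays. Against vehicle, the group mean of complex I was higher by 0.30 and 0.11 at the middle dose and by 0.50 and 0.22 at the high dose. For complex III the differences were 0.30 and 0.13 at the middle dose and 0.53 and 0.26 at the high dose. For complex IV they were 0.36 and 0.16, then 0.51 and 0.22, and for complex V 0.29 and 0.11, then 0.50 and 0.23. On the quantile scale complexes I, III, IV and V at the high dose did not overlap vehicle, and at the middle dose only complex IV was clear of it. Taken relative to each array's gene median on the deposited scale, the middle-dose differences were 0.03 for complex I, 0.04 for III, 0.09 for IV and 0.02 for V, all overlapping vehicle, and the high-dose differences were 0.26, 0.29, 0.27 and 0.26, none of them overlapping.

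Complex II gave smaller values. Its 4 subunits differed from vehicle by 0.22 and 0.02 at the middle dose and by 0.35 and 0.06 at the high dose, and the arrays overlapped vehicle on both scales at both doses. Relative to the gene median its differences were -0.05 and 0.11. On the deposited scale the complex II mean read 10.13, 10.25 and 10.34 with vehicle and 10.32, 10.61 and 10.81 at the high dose, and its SD over rats was 0.06 with vehicle and 0.15 at the high dose. Its lowest high-dose arrays, 4 (10.321) and 2 (10.395), had the largest beta-actin 3′ to 5′ differences of that group (3.97 and 3.67). So did its lowest middle-dose arrays, 10 (10.212) and 7 (10.301), with 4.42 and 3.95. High-dose array 4 and middle-dose array 10 were also lowest for complexes I, III and V. The part of RNA quality in these values was not tested. These complex means are descriptions, and the differences between complexes were not tested.

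**Figure D2:**
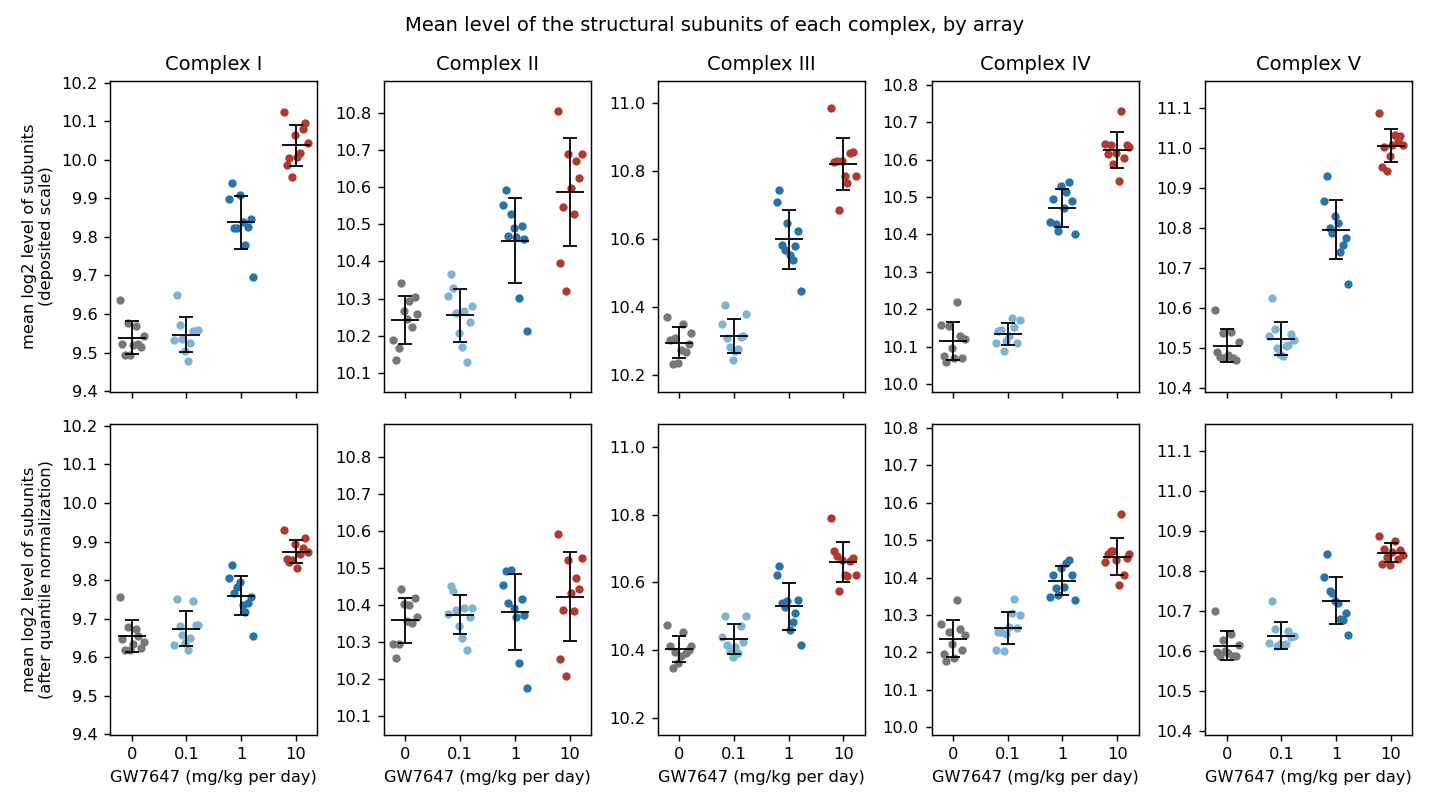
Mean log2 level of the structural subunits of complexes I to V on each array (points, 10 per group), against daily GW7647 dose in mg/kg (0 is vehicle), on the deposited scale (top) and after quantile normalization (bottom); bars are group mean ± SD and axes do not start at 0. Vehicle and 0.1 mg/kg overlap in every panel, and at 10 mg/kg all complexes but II lie clear of vehicle on both scales.

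In complex I 20 of 32 structural subunits rose at the high dose and 8 at the middle dose. All 6 measured core subunits, which carry the flavin and most of the iron-sulfur clusters or lie next to them, rose at the high dose, with changes between 0.53 and 0.73 on the deposited and 0.23 to 0.41 on the quantile scale. Of them only Ndufv1, the flavoprotein that binds NADH, rose at the middle dose. Ndufv1 read 8.71, 9.0 and 9.41 with vehicle, 9.31, 9.44 and 9.67 at the middle dose and 9.43, 9.62 and 9.71 at the high dose. Its lowest high-dose array lay just above the highest vehicle array on this scale, the groups overlapped on the quantile scale, and its change at the high dose was 0.61 (SE 0.06) and 0.31 (SE 0.06). Ndufs1, the large iron-sulfur subunit, read 7.20, 7.73 and 7.90 with vehicle and 7.92, 8.37 and 8.98 at the high dose, a change of 0.73 (SE 0.10) and 0.41 (SE 0.09). On this scale the 2 groups of Ndufs1 did not overlap, whereas on the quantile scale they did.

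Accessory subunits ranged more widely: 14 of 26 rose at the high dose, with quantile changes from -0.37 to 0.69. Ndufa7 had the largest rise of all members. It read 9.53, 9.73 and 9.94 with vehicle, 9.59, 9.73 and 9.90 at the low dose, 10.07, 10.28 and 10.45 at the middle dose and 10.56, 10.67 and 10.78 at the high dose. On this scale the middle- and high-dose groups overlapped neither vehicle nor each other, and the change at the high dose was 0.94 (SE 0.05) and 0.69 (SE 0.05), a 1.61-fold rise on the quantile scale (limma adjusted p = 3.38e-15). A second, dim probe set of Ndufa7 gave 1.11 and 0.88. Ndufb1, an accessory subunit of the membrane arm, read 10.04, 10.20 and 10.33 with vehicle and 10.86, 11.08 and 11.26 at the high dose, without overlap, a change of 0.90 (SE 0.05) and 0.63 (SE 0.05). Ndufb10, of the same arm, changed by 0.82 (SE 0.06) and 0.53 (SE 0.06), again without overlap. Ndufab1, the mitochondrial acyl carrier protein bound in complex I, read 10.46, 10.73 and 10.81 with vehicle and 11.10, 11.29 and 11.52 at the high dose, and rose by 0.57 and 0.28; its change at the middle dose did not pass on the quantile scale.

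Some accessory subunits did not move with the others. Ndufa1, a small membrane subunit, named after its values were seen, read 10.41, 10.54 and 10.75 with vehicle, 10.39, 10.56 and 10.58 at the low dose, 10.21, 10.57 and 10.75 at the middle dose and 10.28, 10.46 and 10.68 at the high dose on the deposited scale. The groups overlapped there, and the change at the high dose was -0.10 (SE 0.06, adjusted p = 0.132). On the quantile scale the change was -0.37 (SE 0.05, adjusted p = 4.45e-07), and all high-dose arrays lay below all vehicle arrays, so the call for Ndufa1 depends on the scale. Ndufa2, likewise named after its values were seen, differed by 0.09 (adjusted p = 0.22) and -0.20 (adjusted p = 0.00934). Ndufv3, an accessory flavoprotein subunit also named after its values were seen, had probe sets that disagreed: 0.23 and -0.03 for the brighter, which was used, and 1.02 and 0.71 for the other. Of the 6 assembly factors of complex I, 4 rose at the high dose. Ndufaf1, which helps build the membrane arm, was dim but rose at both doses, by 0.71 and 0.46 at the middle dose and 0.71 and 0.47 at the high dose; its vehicle and high-dose arrays overlapped.

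**Figure D3:**
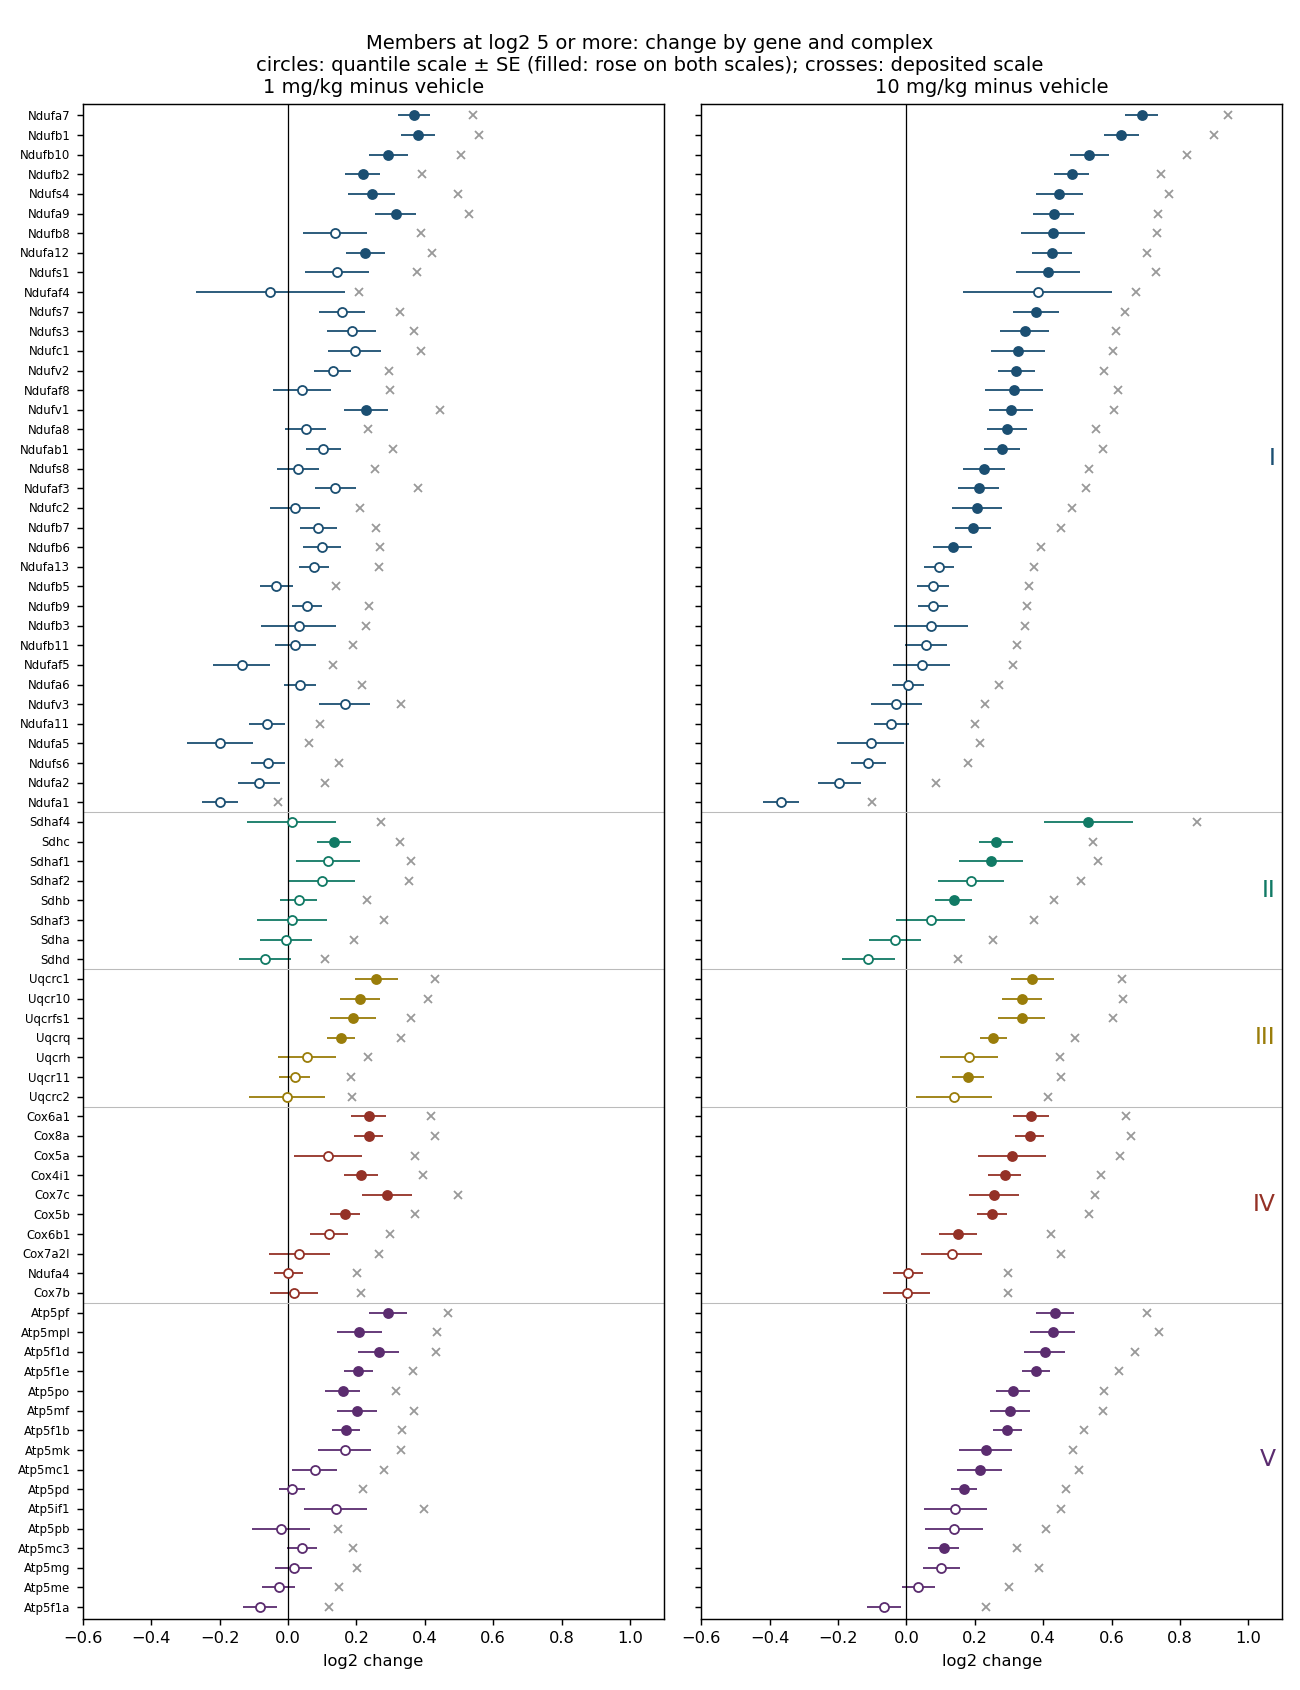
Log2 change from vehicle of the 77 members that reached log2 5, at 1 mg/kg (left) and 10 mg/kg (right), by complex (I to V, top to bottom) and ordered by the quantile change at 10 mg/kg. Circles give the quantile change ± SE, filled where the member rose on both scales, and crosses the deposited change; Ndufa7 lies farthest right at 10 mg/kg (0.69) and Ndufa1 farthest left (-0.37).

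In complex II Sdhc rose at both doses, Sdhb at the high dose, and Sdha and Sdhd at neither. Sdha, the flavoprotein that oxidises succinate, read 9.20, 9.46 and 9.58 with vehicle and 9.26, 9.67 and 10.20 at the high dose. These groups overlapped widely, with a change of 0.25 (SE 0.08) and -0.03 (SE 0.08, adjusted p = 0.747). Sdhb, the iron-sulfur subunit, read 10.65, 10.82 and 10.95 with vehicle and 11.06, 11.28 and 11.41 at the high dose, and rose by 0.43 (SE 0.06) and 0.14 (SE 0.05, adjusted p = 0.037). Sdhc, 1 of the membrane anchors, read 10.55, 10.64 and 10.77 with vehicle and 11, 11.18 and 11.44 at the high dose, without overlap on this scale, and rose by 0.54 (SE 0.05) and 0.26 (SE 0.05). Sdhd, the other anchor, read 9.91, 10.08 and 10.37 with vehicle and 9.74, 10.25 and 10.61 at the high dose; its change was 0.15 (SE 0.08) and -0.11 (SE 0.08), and a second probe set gave 0.38 and 0.06. Of the 4 assembly factors, Sdhaf4 and Sdhaf1 rose at the high dose. Sdhaf4, a chaperone of Sdha, read 6.21, 6.33 and 6.81 with vehicle and 6.89, 7.23 and 7.97 at the high dose, a change of 0.85 (SE 0.13) and 0.53 (SE 0.13), while at the middle dose it was 0.27 and 0.01. Sdhaf1, which serves the iron-sulfur subunit, rose by 0.56 (SE 0.09) and 0.25 (SE 0.09).

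In complex III 5 of 7 subunits rose at the high dose and 4 at the middle dose. Uqcrc1 reached 10.39, 10.70 and 10.85 at the high dose, above all vehicle arrays on this scale, and rose by 0.63 (SE 0.05) and 0.37 (SE 0.06). Uqcrc2, the other core subunit, read 9.08, 9.66 and 9.90 with vehicle and 9.44, 10.16 and 10.50 at the high dose. Its arrays spread more within each group, with an SD of 0.36 at the high dose, and its change of 0.41 (SE 0.12) and 0.14 (SE 0.11, adjusted p = 0.322) did not pass. Uqcrfs1, the Rieske iron-sulfur protein, read 10.26, 10.38 and 10.59 with vehicle and 10.70, 11.03 and 11.25 at the high dose, and rose by 0.61 (SE 0.07) and 0.34 (SE 0.07). Uqcr10, a small subunit, rose by 0.63 (SE 0.06) and 0.34 (SE 0.06). Cyc1, the cytochrome c1 of this complex, lies outside the symbol rule and rose by 0.63 and 0.36.

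In complex IV 7 of 9 structural subunits rose at the high dose and 5 at the middle dose. Cox8a, the smallest subunit in its liver form, read 10.58, 10.77 and 10.91 with vehicle, 10.68, 10.80 and 10.89 at the low dose, 11.14, 11.20 and 11.23 at the middle dose and 11.35, 11.41 and 11.57 at the high dose. The middle- and high-dose groups lay apart from vehicle and from each other on this scale, and the change at the high dose was 0.66 (SE 0.04) and 0.36 (SE 0.04, adjusted p = 6.27e-09). Cox6a1, the liver form of subunit VIa, read 10.73, 10.95 and 11.01 with vehicle and 11.44, 11.57 and 11.70 at the high dose, and rose by 0.64 (SE 0.05) and 0.36 (SE 0.05). Cox4i1, the common form of subunit IV, rose by 0.57 (SE 0.05) and 0.29 (SE 0.05), and Cox6b1, the common form of subunit VIb, by 0.42 (SE 0.05) and 0.15 (SE 0.06). Cox5a, a subunit on the matrix side, was the dimmest of those that rose, with medians of 6.14 and 6.79, and rose by 0.62 (SE 0.10) and 0.31 (SE 0.10). Cox7c, a small membrane subunit, rose by 0.50 and 0.29 at the middle dose and by 0.55 and 0.26 at the high dose. Ndufa4 read 10.85, 10.97 and 11.10 with vehicle and 10.98, 11.29 and 11.41 at the high dose, and its change of 0.30 (SE 0.05) became 0.00 (SE 0.04) on the quantile scale.

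The isoforms of complex IV known from muscle, lung or testis stayed near the floor in all groups. The muscle forms Cox6a2 and Cox8b had medians of 1.99 and 2.33 with vehicle and 2.25 and 2.33 at the high dose, and Cox7a1, another muscle form, 2.74 and 2.77. Cox4i2, the lung form of subunit IV, had medians of 2.22 and 2.45, and Cox6b2, the testis form of subunit VIb, 2.06 and 2.51. None of these 5 passed on both scales at any dose. Of the 7 isoforms 1 rose at the high dose: Cox7b2, a testis form, with medians of 1.74 and 2.09, close to the floor. Its change there was 0.43 and 0.16 (adjusted p = 0.0484).

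In complex V 11 of 15 structural subunits rose at the high dose and 7 at the middle dose. The 11 were 3 of 4 measured subunits of F1 (head and central stalk) and both measured genes of the c-ring. With them were 3 of 4 of the peripheral stalk and 3 of 5 small membrane subunits. Atp5pf, the coupling factor 6 of the stalk, read 9.47, 9.71 and 9.91 with vehicle and 10.21, 10.38 and 10.61 at the high dose, without overlap, and rose by 0.70 (SE 0.06) and 0.43 (SE 0.06). Atp5mpl, a small membrane protein of the synthase, rose by 0.74 (SE 0.06) and 0.43 (SE 0.07). Atp5f1d, the delta subunit of the central stalk, read 9.99, 10.11 and 10.39 with vehicle and 10.63, 10.80 and 10.97 at the high dose, and rose by 0.67 (SE 0.06) and 0.40 (SE 0.06). Atp5if1 is the peptide that inhibits the synthase when it runs backward. On the probe set used it differed by 0.45 and 0.14 (limma adjusted p = 0.212) and did not rise. Its other probe sets, both dim, gave 0.74 and 0.52, and 1.22 and 0.98.

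Of the alpha and beta subunits, which alternate in the head and of which beta holds the catalytic sites, beta rose and alpha did not pass. Atp5f1b (beta) read 11.23, 11.36 and 11.54 with vehicle, 11.28, 11.38 and 11.54 at the low dose, 11.53, 11.72 and 11.76 at the middle dose and 11.83, 11.87 and 12.00 at the high dose. Its high-dose arrays lay above all vehicle arrays, and it rose by 0.52 (SE 0.04) and 0.30 (SE 0.04). Atp5f1a (alpha) read 10.66, 10.84 and 10.91 with vehicle, 10.73, 10.84 and 10.97 at the low dose, 10.59, 10.99 and 11.13 at the middle dose and 10.87, 11.09 and 11.23 at the high dose. Its groups overlapped, and its change at the high dose was 0.23 (SE 0.06) and -0.07 (SE 0.05, adjusted p = 0.293).

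Partners were also set against each other by their log2 difference within each array, for 4 pairs. The pairs were chosen after the members' values had been seen, so the values are a description with no test. The difference of 2 probe sets is no ratio of transcript levels, so only its change between groups is read. Beta minus alpha was 0.54 ± 0.06 with vehicle, 0.55 ± 0.04 at the low dose, 0.75 ± 0.17 at the middle dose and 0.83 ± 0.15 at the high dose (mean ± SD, n = 10 each, deposited scale). Against vehicle it was higher by 0.22 (SE 0.06) at the middle dose and by 0.29 (SE 0.05) at the high dose. Its high-dose arrays ranged from 0.65 to 1.05 and overlapped the vehicle range of 0.44 to 0.66 only at its upper end. On the quantile scale the differences were 0.25 and 0.36. Within the 1 mg/kg group, arrays 1 to 4 differed from vehicle by 0.12 and arrays 5 to 10 by 0.28, in step with the spiked controls, whose part was not tested.

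**Figure D4:**
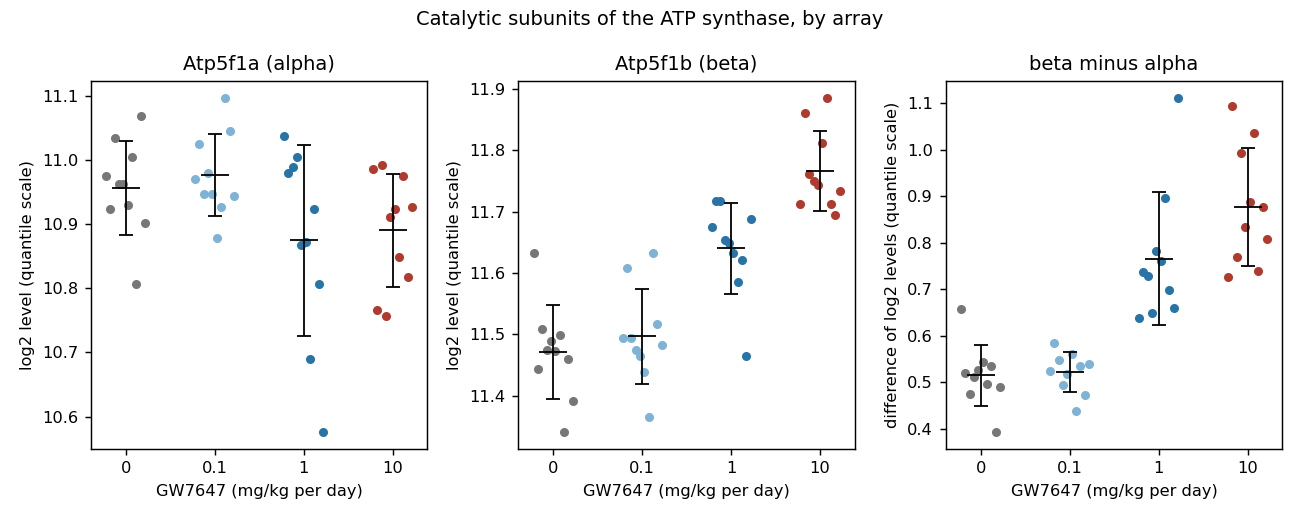
Log2 levels of Atp5f1a (left) and Atp5f1b (middle) and their difference within each array (right), on the quantile scale, against daily GW7647 dose in mg/kg (0 is vehicle). Points are arrays (10 per group), bars are mean ± SD, and axes do not start at 0; the difference rises by 0.25 at 1 mg/kg and 0.36 at 10 mg/kg while Atp5f1a overlaps vehicle at every dose.

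The other pairs gave smaller or less even differences. Sdhb minus Sdha was higher than with vehicle by 0.18 (SE 0.07) at the high dose. Uqcrc1 minus Uqcrc2 was higher by 0.22 (SE 0.18), with arrays at the high dose spread from -0.02 to 1.41. Ndufv1 minus Ndufv2, its partner in the NADH-oxidising module, differed by 0.03 (SE 0.11).

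Genes that serve the chain without being members were read against the same shares of all genes, of which 11.1% rose and 3.37% fell at the middle dose, and 20.5% rose and 7.69% fell at the high dose. Of 35 measured genes for the assembly of the complexes and copper delivery, none of them members, 8 rose at the middle dose and 16 at the high dose, and 0 fell at either. Lrpprc, which stabilises mitochondrial messenger RNAs, went from 7.59 ± 0.12 with vehicle to 8.78 ± 0.23 at the high dose, a rise of 1.19 and 0.87. Of 21 genes for electron carriers and for the feeding, synthesis or binding of ubiquinone, 11 rose and 2 fell at the high dose, these falls near the share over all genes. At the middle dose 8 rose and 2 fell. Gpd2, the mitochondrial glycerol-3-phosphate dehydrogenase, rose by 2.56 and 2.27 at the high dose, whereas Prodh, the proline dehydrogenase, fell by 1.24 and 1.54, and Coq10a, a ubiquinone-binding protein, fell by 1.27 and 1.54. The flavoproteins Etfa, Etfb and Etfdh, which carry electrons from beta-oxidation to ubiquinone, rose by 0.81, 0.48 and 0.73 on the deposited scale and by 0.54, 0.18 and 0.43 on the quantile scale.

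Of 10 genes for ATP and phosphate exchange and uncoupling, with the member Atp5if1 among them, 6 rose at the high dose and 3 at the middle dose, and 0 fell. Ucp3, an uncoupling protein best known from muscle, was near the floor at 2.48 ± 0.15 with vehicle and 2.45 ± 0.22 at the middle dose, and stood at 5.13 ± 0.57 at the high dose. Ucp3 rose at the high dose by 2.66 and 2.41, a size that is uncertain from so low a level. Ucp2, the uncoupling protein found in many tissues, rose by 0.76 at the middle dose and 0.95 at the high dose on the quantile scale. Vdac1, the main pore of the outer membrane, rose by 0.66 and 0.39 at the high dose.

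Of 18 regulators of mitochondrial genes, 5 rose and 0 fell at the high dose, and 2 rose and 2 fell at the middle dose, rises near the share over all genes at both doses. Gabpa, the DNA-binding subunit of an ETS factor, was dim and went from 3.97 ± 0.34 with vehicle to 4.97 ± 0.34 at the high dose. Its rise was 1.00 and 0.75. Ppargc1b, a coactivator, was also dim and rose by 1.15 and 0.90. Tfam, which packages mitochondrial DNA, rose by 0.60 and 0.29. Esrra, the estrogen-related receptor alpha, differed by 0.07 and -0.18 and did not pass. Nrf1, a transcription factor of mitochondrial genes, was dim and fell by 0.36 and 0.50 at the middle dose, from 3.05 ± 0.35 with vehicle to 2.69 ± 0.19, then rose by 0.44 and 0.34 from there to 3.13 ± 0.18 at the high dose. Ppargc1a and Ppara averaged log2 2.10 and 2.62 at the high dose, close to the floor. Their deposited changes there, 0.33 and 0.45, passed, and their quantile changes, 0.06 and 0.21, did not.

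Other mitochondrial lists set the size of these changes. At the high dose 17 of 18 genes of mitochondrial beta-oxidation rose, with a median change of 1.24 and 0.98, and 7 of 11 of the tricarboxylic acid cycle, with 0.71 and 0.39. For mitochondrial ribosomal proteins, 37 of 73 rose at the high dose and 15 at the middle dose, with a median change of 0.51 and 0.20 at the high dose. For 49 genes whose symbols start like cytosolic ribosomal proteins, which include some kinases, 16 rose at the high dose and 4 at the middle dose, with 0.35 and 0.09. The median member, at 0.49 and 0.21, thus lay near the mitochondrial ribosomal genes and below beta-oxidation by its value; these differences were not tested.

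Markers of other liver cells also moved with dose. Of all genes, 20.5% rose and 7.69% fell at the high dose, and 3.37% fell at the middle dose. Of 9 measured macrophage markers 8 fell at the high dose and 3 at the middle dose. Their mean level ranged from 7.04 to 7.85 with vehicle and from 6.17 to 7.22 at the high dose on the deposited scale. Of 7 hepatocyte markers 0 rose and 3 fell at the high dose, and their mean level was 11.92 to 12.12 with vehicle and 11.87 to 12.11 at the high dose. On the quantile scale it was 11.99 to 12.18 and 11.77 to 12.01. Of 7 endothelial markers 2 fell at the high dose, Tek by 0.44 and 0.72 and Kdr by 0.36 and 0.67. The mean of the list ranged from 6.26 to 6.62 with vehicle and from 6.10 to 6.44 at the high dose. On the quantile scale its ranges, 6.38 to 6.79 and 6.04 to 6.27, did not overlap. Of 6 cholangiocyte markers Epcam rose by 1.26 and 0.98, Sox9 rose by 0.45 and 0.17 and Spp1 fell by 0.64 and 0.89, with a list mean of 2.82 to 3.37 and then 2.91 to 3.52. Of 9 stellate and fibroblast markers Col1a1 rose by 0.59 and 0.35 and Des fell by 0.32 and 0.57, with a list mean of 4.25 to 4.86 and then 4.41 to 5.16. The cholangiocyte list and the stellate and fibroblast list also overlapped vehicle on the quantile scale. Of 2 measured erythroid markers Alas2 rose by 0.67 and 0.43. All 7 measured lymphocyte markers averaged below 2.5 and 0 passed. Of the 9 striated muscle markers, all near the floor, 1 rose and 1 fell at the high dose, no clear departure from those shares. Ckm rose by 0.46 and 0.20, and Tnni3 fell by 0.19 and 0.47. The part of cell composition in the members' changes was not tested.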

How the data were processed

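Liver RNA of 40 rats was measured on 1 Affymetrix array each, with groups and doses from the labels. The deposited values are on the log2 scale, 1 per probe set. The submitters' processing notes name GCRMA and Partek, used by the authors, without versions. GCRMA corrects for background by probe sequence, so dim probe sets lie near a floor. The number of arrays, not a read depth, limits the precision.

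Of 31139 probe sets, 19062 name 1 gene, 573 several and 11504 none here. Each of 13437 genes was read by its probe set of highest mean level on the 40 arrays, before any group was compared. Each comparison was a two-sided contrast in 1 model of all 4 groups (limma 3.58.1, R 4.3.3, lmFit and eBayes), with Benjamini-Hochberg adjustment over all genes, on the deposited values and after quantile normalization. The labels give separate rats as replicates. The members, lists, rule and tests were chosen with earlier results of these data known. Named were 23 members whatever their values, the 3 largest rises and falls of each complex at 10 mg/kg and 2 and 2 at 1 mg/kg, and up to 4 genes per list; others are said to be chosen after their values were seen, except that a count of a few is followed by its members. Cyc1, Etfa, Etfb, Etfdh, Tfam, Esrra, Nrf1, Ppargc1a and Ppara were also named after their values were seen. The fit was tested on simulated data. Alternatives were other scalings, probe set rules, filters, variance models, array weights, a replicate block, a 1.2-fold test and leaving arrays out. The partner differences and the motif searches in RefSeq promoters (GRCr8) were added after the values were seen.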

Additional observations from a re-analysis of the deposited data

Results flagged for a closer look

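Single arrays stood apart from the other 9 of their group in 20 of 156 checks of named members and complex means, where the gap to the nearest array was a larger part of the group's range than Dixon's critical value allows for 10 arrays. Chance flags about 1 in 20 groups, and members measured on 1 array are not independent. Values are deposited log2 levels.

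In the vehicle group, array 1 was highest for Atp5f1d (10.385), Cox4i1 (11.255) and Uqcr10 (11.067), and array 7 for Sdhd (10.37). Array 2 was lowest there for Cox6a1 (10.732) and Ndufab1 (10.458), and array 8 for Atp5f1a (10.664). At 0.1 mg/kg, array 8 was lowest for Ndufs1 (7.3318) and array 1 for Sdhb (10.673), and array 2 was highest for the complex V mean (10.623).

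At 1 mg/kg, array 4 was highest for Atp5f1d (10.831) and Ndufv1 (9.6691), and array 3 for Cox6b2 (3.0151). The lowest there were array 9 for Atp5f1b (11.533) and array 10 for Ndufab1 (10.685). At 10 mg/kg, array 5 was highest for Cox7a1 (3.676) and Sdhc (11.442), and array 7 for the complex IV mean (10.73). Array 4 was lowest there for Ndufa4 (10.976) and array 2 for Sdhaf1 (7.0003).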

How the results depend on the processing

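The counts of members that rose or fell were recomputed under other settings. The deposited scale alone gave 67 rises for 1 mg/kg, 80 for 10 mg/kg, 70 from 0.1 to 1 mg/kg and 49 from 1 to 10 mg/kg. Quantile normalization alone gave 2 falls at 1 mg/kg, 2 at 10 mg/kg and 1 in each step. With arrays shifted to 1 gene median, 8 rose and 3 fell at 1 mg/kg, 51 rose and 1 fell with 10 mg/kg, 4 rose and 11 fell from 0.1 to 1 mg/kg, and 47 rose from 1 to 10 mg/kg. Scaling to hybridisation controls gave 9 rises at 1 mg/kg, 43 rises and 1 fall at 10 mg/kg, and 13 and 4 rises in the steps. The test against 1.2-fold left 9 rises with 10 mg/kg, 0 with 1 mg/kg and 0 in each step. Keeping arrays 1 to 4 alone for 1 mg/kg left 5 rises from 1 to 10 mg/kg. Shares of all genes were computed for the single scales only, and the cause of these moves was not tested. The count at 1 mg/kg and in the steps therefore depends on the scale, and that at 10 mg/kg stayed between 43 and 52 except with the deposited scale alone and the 1.2-fold test.

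Leaving out 1 array at a time gave 24 to 29 rises and 0 to 1 falls at 1 mg/kg (the fall without replicate 3 of that group), 48 to 52 rises at 10 mg/kg, and 20 to 23 and 20 to 24 in the steps. The deviations of rats of 1 replicate number had a mean r of 0.07, from -0.322 to 0.479 over 60 pairs, against -0.007 for other numbers. Of 40 arrays, 8 were closest to their own number. Whether the numbers mark a shared factor was not tested, and the main fit used no block. With the replicate block, 26 members rose at 1 mg/kg, 51 at 10 mg/kg and 22 in each step. The 68 values of named members include some that were not called. Among values called in the main or the other setting, 0 changed sign. Values called in neither could change sign, as for Sdha, Sdhd and Atp5f1a at 10 mg/kg on the quantile scale. With arrays shifted to 1 median 11 were no longer called and 1 was newly called. The losses were 12 with the hybridisation controls and 1 with the block. Atp5f1b minus Atp5f1a kept its direction on the quantile scale and, at 1 mg/kg, with arrays 1 to 4 alone.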
